A study of Mus musculus with 2 samples.

Results

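The cells described here are the basal cells of the DoubleTg prostate tumour library. They were chosen by 3 keratin genes. A member had more than 200 and fewer than 7000 detected genes, under 15% mitochondrial UMIs, at least 1 UMI of Epcam, 0 UMIs of Ptprc, and at least 20 UMIs of Krt5, Krt14 and Krt15 together per 10000 UMIs of the cell. A UMI (unique molecular identifier) marks 1 captured RNA molecule. Of the 12072 deposited DoubleTg cells, 10598 met the limits on genes and mitochondrial UMIs, 8458 of those were Epcam+ Ptprc-, and 2101 were members, which is 24.8% of the Epcam+ Ptprc- cells. The members were set against the 6166 Epcam+ Ptprc- cells of the same library with under 10 UMIs of the keratins per 10000, named comparison cells here, and the 191 cells in between entered neither group. The study states another number of cells under the same limits, so the members may include cells that it did not use.

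DoubleTg mice carry hHGFtg, a human HGF transgene expressed ubiquitously, together with hMETtg, a human MET transgene at the H11 locus behind a floxed stop cassette, which PB-Cre4, a Cre driven by the probasin promoter of the prostatic epithelium, switches on. The only other library was from TripleTg mice, which share hHGFtg, hMETtg and PB-Cre4 and carry in addition a Ctnnb1 allele with a floxed exon 3, so that recombination stabilises β-catenin. The labels give the tissue as prostate, with prostatic adenocarcinoma for DoubleTg and prostatic carcinoma for TripleTg. Tissue was dissociated with collagenase and TrypLE and sequenced by 10x Genomics 3′ chemistry, with 1 library per genotype. The age of these mice and the number of animals in a library are not given in the sources used here. With 1 library each, no difference below has a replicate check, no test was run, and every interval is a 95% interval that covers counting error only.

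Basal cells form the outer layer of the prostatic epithelium, between the secretory luminal cells and the basement membrane. They are known for keratins 5 and 14, for the transcription factor p63, and for hemidesmosomes, the complexes of integrin α6β4, plectin, dystonin and collagen XVII that fasten keratin filaments to laminin-332 in the basement membrane. HGF is the ligand of the MET receptor tyrosine kinase, and the probasin promoter that drives Cre here responds to androgen and is best known from luminal cells.

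The label was set beside basal marker genes, most of which the rule did not use. These genes were chosen with earlier results of these data known, so their values describe the members and do not check the label. Of the 10 basal markers on the list, 3 are the keratins of the rule. The other 7 were all at least 2-fold higher in the members than in the comparison cells, where 14.6% of all genes compared were. Col17a1 was at 396 CPM (UMIs per 1000000 UMIs, summed over all cells of a group) in the members and 2.89 CPM in the comparison cells. Lgals7, which encodes galectin-7 of stratified epithelia, was at 1222 and 9.06 CPM. Trp63, the gene of p63, was at 12.97 and 0.11 CPM. Its level rested on 461 UMIs in the members, and 5.50% of members had a UMI of it at 5000 UMIs. The luminal keratins were not absent. Krt8 and Krt18 together reached 20 per 10000 UMIs in 81.9% of members and in 89.9% of comparison cells, and in the members Krt8 was at 2632 CPM against 152 CPM in the 336 Ptprc+ Epcam- cells, which should lack it. The members thus carried RNA of the basal markers together with luminal keratin RNA.

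The members had a median of 13423 UMIs (range 532 to 95140) and 3040 genes per cell. The comparison cells had a median of 28060 UMIs and the Ptprc+ Epcam- cells 7676 UMIs. Shares of cells with a UMI are therefore given after thinning each cell to 5000 UMIs, which left out 139 members and 1048 comparison cells. Scrublet, a doublet caller, marked 102 members (4.85%), 81 comparison cells (1.31%) and 18 of the cells in between (9.42%). The DoubleTg and TripleTg libraries shared 30 barcodes, of which 1 met the basal rule in both.

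Among the genes of the rule, whose values are a description of the choice and not a result, Krt15 gave 62.2% of the 3 keratins' UMIs, Krt14 28.0% and Krt5 9.79%. Krt15 was the highest of the 3 in 1625 members (77.3%), Krt14 in 456 (21.7%) and Krt5 in 20 (0.952%). UMIs of all 3 keratins were seen in 1825 members (86.9%). The keratin sum had a median of 94.1 per 10000 and a maximum of 730. The 87 members just inside the threshold, at 20 to 25 per 10000, had Col17a1 at 123 CPM, Krt8 at 4433 CPM and hMETtg at 290 CPM. The 105 cells just outside it, at 15 to 20 per 10000, had 111, 4678 and 327 CPM in the same order. Sbp was at 6778 CPM inside and 20271 CPM outside, Spink1 at 858 and 3853 CPM, and Svs2 at 373 and 42.7 CPM, so some genes were close across the threshold and others were not.

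Of the 15 genes with the highest ratios of members over comparison cells at equal depth, 6 had an annotated start whose 120 upstream bases lay outside the gene span of GENCODE mouse release 21, and these are shown. All sequences are from RefSeq on GRCm38.p6, are written 5′ to 3′ on the strand of the gene, and have matches to searched motifs in capitals. The stretch for Krt5 is chr15:101712906-101713025, that for Aqp3 is chr4:41098184-41098303, that for Lmo1 is chr7:109175208-109175327 and that for Krt13 is chr11:100121567-100121686, and these 4 genes are on the minus strand. The stretch for Gm1673 is chr5:33983313-33983432 and that for Anxa8 is chr14:34085859-34085978, both on the plus strand.
Krt5: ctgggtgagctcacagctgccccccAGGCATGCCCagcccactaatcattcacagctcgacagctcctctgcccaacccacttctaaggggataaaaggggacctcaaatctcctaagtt
Aqp3: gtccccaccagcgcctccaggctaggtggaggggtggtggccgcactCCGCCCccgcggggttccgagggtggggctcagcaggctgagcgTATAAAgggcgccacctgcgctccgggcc
Lmo1: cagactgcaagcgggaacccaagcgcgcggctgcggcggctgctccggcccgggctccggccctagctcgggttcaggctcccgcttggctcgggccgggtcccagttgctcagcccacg
Krt13: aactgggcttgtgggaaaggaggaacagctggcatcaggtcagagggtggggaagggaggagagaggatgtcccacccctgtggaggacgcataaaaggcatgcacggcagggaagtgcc
Gm1673: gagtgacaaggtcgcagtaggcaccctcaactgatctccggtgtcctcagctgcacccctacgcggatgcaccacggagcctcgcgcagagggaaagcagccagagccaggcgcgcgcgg
Anxa8: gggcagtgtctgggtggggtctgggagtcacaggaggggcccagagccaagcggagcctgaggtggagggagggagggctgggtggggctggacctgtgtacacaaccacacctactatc

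Both strands were searched for the TATA box, spelled TATAAA. The AP-1 motif searched was spelled TGANTCA. The GC box was spelled GGGCGG. The half-site of the p53 family, to which p63 belongs, was searched in its form with a CATG core. Krt5 had a p53 family half-site at -95, and Aqp3 had TATAAA at -29 and a GC box at -73, each counted from the annotated start. The other 4 genes had none of these letters in the bases shown. Over 250 bases upstream of the first listed start of each gene, the p53 family half-site was in 1.68% of 27025 promoters, in 1.03% of the 7121 with a sequence among the genes compared here, in 1.96% of the 1018 among genes higher in the members and in 1.21% of the 989 among lower genes. TATAAA was in 13.0%, 6.52%, 9.04% and 9.10% of the same sets, AP-1 in 6.87%, 4.27%, 5.60% and 5.56%, and the GC box in 32.9%, 63.1%, 65.1% and 53.9%. TATAAA and AP-1 were thus about as frequent in higher as in lower genes. A match is a description of letters and not a binding site.

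Genes were compared where either group had at least 5 CPM, which left 9241 genes, and a gene was called where the CPM of the groups differed at least 2-fold. By this call 1349 genes were higher in the members (14.6% of those compared) and 1319 lower (14.3%), with a median log2 ratio of 0.09 over all genes. List counts over all members are read beside these shares. After the keratins of the rule, the genes with the highest ratios at equal depth were Aldh3a1, Col17a1, Lgals7, Aqp3, Rgs12, Lmo1, Lama3, Adgrb1, Krt13, Gm1673, Anxa8 and Pdgfb. The CPM values and log2 ratios given for genes are on all UMIs unless stated. Aldh3a1, an aldehyde dehydrogenase, was at 56.4 CPM in the members and 0.30 CPM in the comparison cells, a log2 ratio of 7.56 (7.19 to 7.96). Aqp3, a water and glycerol channel of basal epithelial layers, was at 465 and 4.31 CPM, a log2 ratio of 6.75 (6.65 to 6.86), with a UMI in 51.9% of members, 1.48% of comparison cells and 2.16% of Ptprc+ Epcam- cells at 5000 UMIs. The LIM-only gene Lmo1 was at 78.2 and 0.70 CPM, and Pdgfb, a growth factor gene, at 90.4 and 1.80 CPM. These genes were near 0 in the comparison cells of the same suspension.

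**Figure D1:**
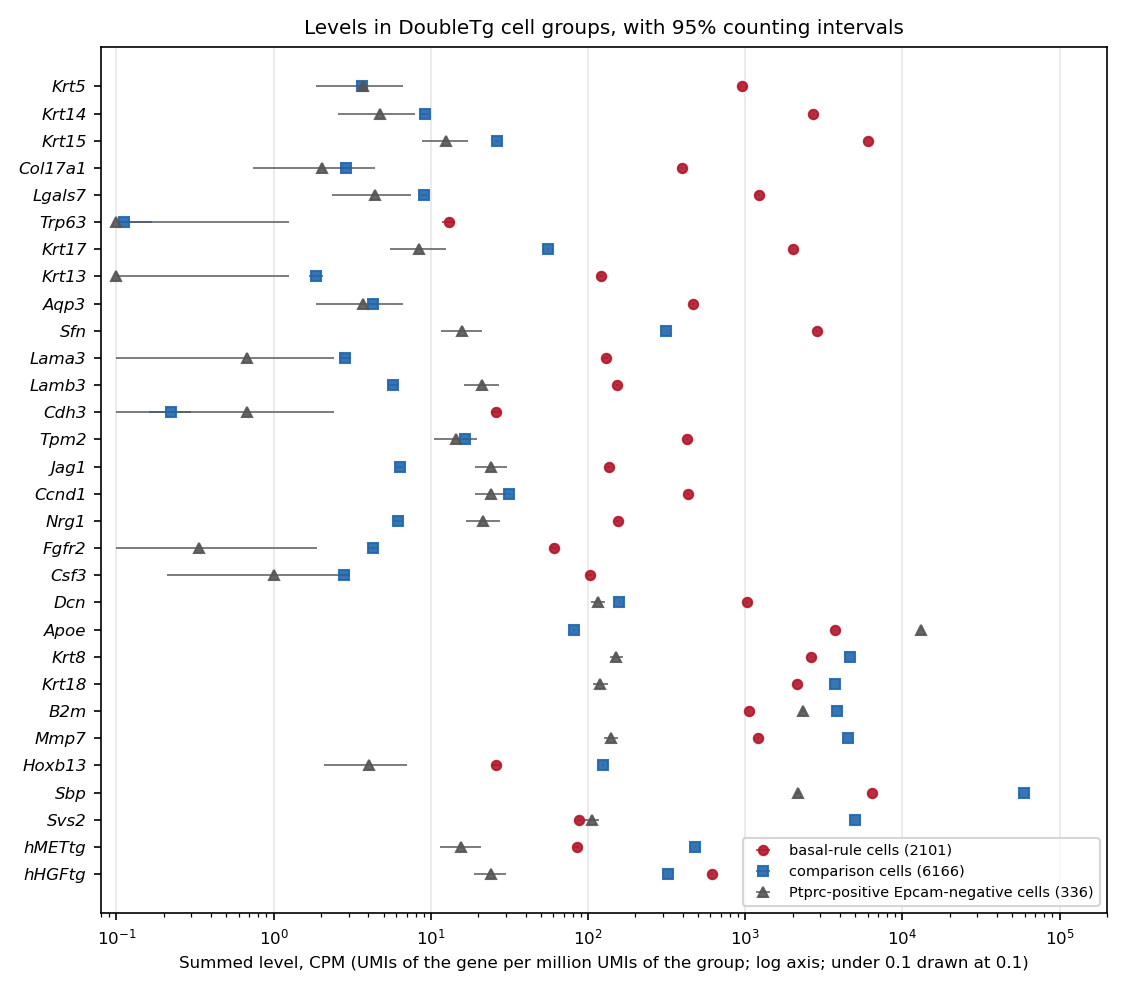
Levels of genes in DoubleTg cells, in CPM on a log axis, for the members, the comparison cells and the Ptprc+ Epcam- cells, with 95% counting intervals and 1 library. Col17a1 and Aqp3 stood at 396 and 465 CPM in the members and under 5 CPM in both other groups, whereas Krt8 stood at 2632 CPM in the members and 4613 CPM in the comparison cells.

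The genes of the basement membrane attachment were mostly higher in the members. Of the 12 hemidesmosome and laminin-332 genes, 10 were higher in the members and none lower, with a median log2 ratio of 2.20 against 0.09 over all genes. Col17a1, the transmembrane collagen of the hemidesmosome, was at a log2 ratio of 7.10 (6.98 to 7.22) and had a UMI in 71.7% of members and 1.27% of comparison cells. The laminin-332 chain Lama3 was at 130 and 2.85 CPM (log2 ratio 5.51) and the chain Lamb3 at 154 and 5.72 CPM (4.75). These genes were at low levels in the comparison cells.

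The integrins that bind laminin differed in the same direction. Itgb4 was at 201 CPM in the members and 40.5 CPM in the comparison cells, and its partner Itga6 was at 286 and 141 CPM. Itga3 was at 343 and 72.7 CPM and Itgb1 at 788 and 176 CPM. The linker genes Dst and Plec, which tie integrin α6β4 to keratin filaments, had log2 ratios of 2.14 and 1.73. Among 12 genes of the basement membrane and matrix, 6 were higher and none lower (median 1.37). That median was 0.65 on thinned counts and 3.13 against comparison cells with high Krt8 and Krt18, at 20 or more of both together per 10000 UMIs. The 6 higher genes were Col4a1 (log2 ratio 1.92), Col4a2 (1.82), Col7a1 (2.87), which encodes the anchoring fibril collagen, Hspg2 (3.55), Fn1 (3.79) and Tnc (2.88).

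Junction genes between cells were mixed. Of the 10 desmosome and cadherin genes compared, 5 were higher and 1 lower (median 0.83). P-cadherin, Cdh3, was at 25.8 and 0.22 CPM, a log2 ratio of 6.85 (6.42 to 7.32), whereas E-cadherin, Cdh1, was at 511 and 499 CPM. Within the plakophilins, which link desmosomal cadherins to desmoplakin, Pkp1 was higher (71.2 and 5.74 CPM), Pkp3 was higher (194 and 76.9 CPM) and Pkp2 was lower (9.73 and 32.2 CPM). The E-cadherin level was therefore close between the groups while the P-cadherin level was not.

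Of the 14 keratins compared, which again include the 3 of the rule, 8 were higher and 1 was lower. Outside the rule, Krt17, a keratin of basal and stressed epithelia, was at 2013 and 55.8 CPM (log2 ratio 5.17), Krt13, a keratin of stratified epithelia, at 121 and 1.86 CPM (6.02), and Krt16 at 196 and 16.0 CPM (3.62). Krt6a was at 350 CPM in the members and 352 CPM in the comparison cells. The simple keratins Krt8, Krt18 and Krt19 had log2 ratios of -0.81, -0.79 and -0.80 and did not reach 2-fold. Without sub-cluster 5, a sub-cluster of members with many doublets that is described further on, they were past 2-fold lower, at -1.19, -1.05 and -1.23. Of the 10 squamous differentiation genes compared, 6 were higher and 2 lower (median 1.11). Sfn, which encodes 14-3-3σ, was at 2842 and 314 CPM, and Ivl, the gene of the cornified envelope protein involucrin, at 55.6 and 25.2 CPM, while Sprr2a3 had a log2 ratio of -2.17.

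Of the 16 epithelial lineage factors, 5 were higher and 2 lower (median -0.14). Trp63 had a log2 ratio of 6.86 (6.24 to 7.55), and Sox2, a pluripotency and foregut factor, was at 21.3 and 2.43 CPM (3.13). Tfap2c was at 21.7 and 2.13 CPM, Sox4 at 184 and 43.3 CPM, and Klf4, a factor of epithelial differentiation, at 479 and 194 CPM. Hoxb13, a factor of the prostatic luminal lineage, was lower, at 25.9 and 125 CPM (log2 ratio -2.27).

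**Figure D2:**
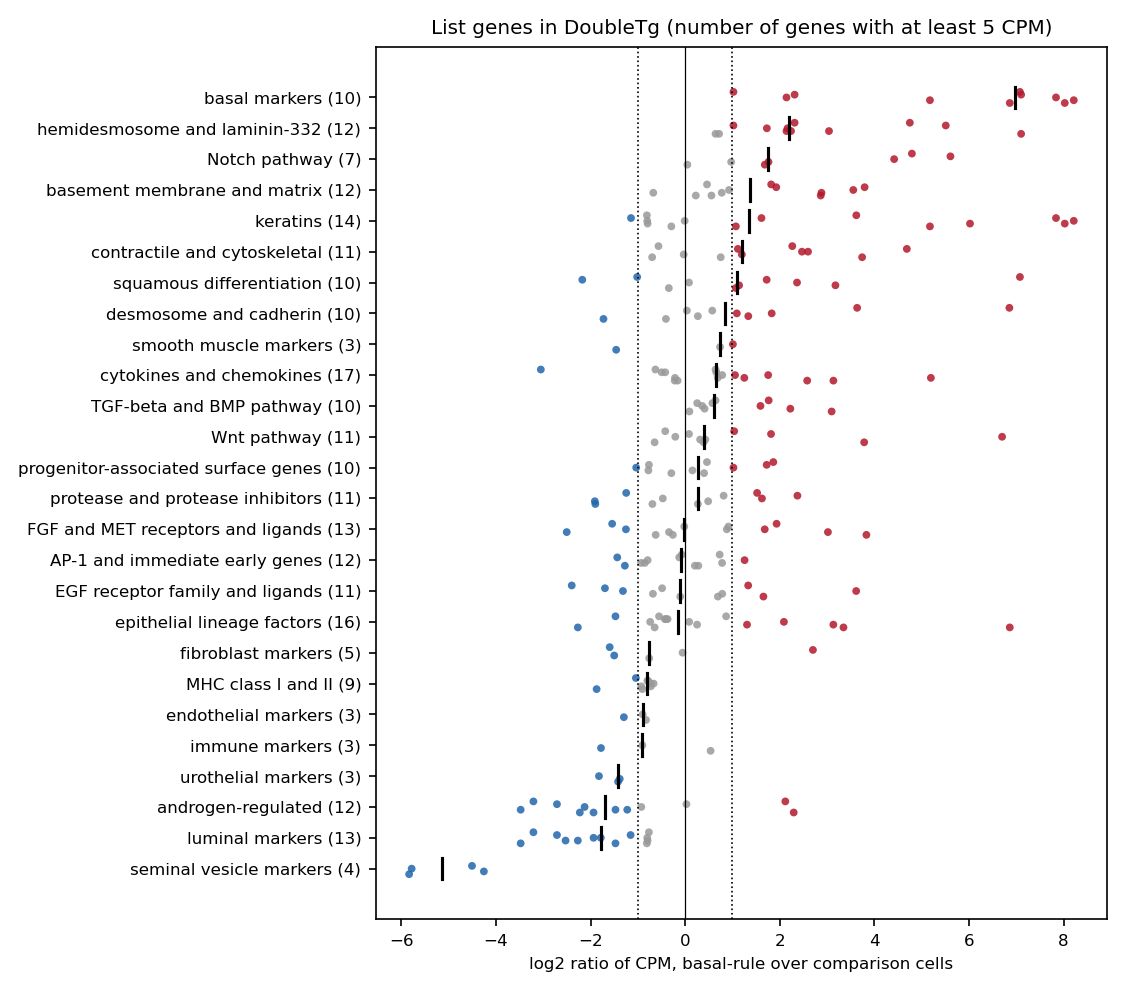
Log2 ratio of CPM in the members over the comparison cells, 1 point per gene of each list, with the number compared in parentheses, red for at least 2-fold higher, blue for at least 2-fold lower, dotted lines at 2-fold and a black bar at the median of each list. Hemidesmosome and laminin-332 genes had 10 higher and 0 lower of 12, and luminal markers had 0 higher and 9 lower of 13.

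Notch signalling runs between neighbouring cells, with Jagged and Delta ligands on the sender. Of the 7 Notch pathway genes compared, 5 were higher in the members and none lower (median 1.76). The ligand Jag1 was at 135 and 6.32 CPM, a log2 ratio of 4.42 (4.33 to 4.51), with a UMI in 43.0% of members and 3.60% of comparison cells. The ligands Jag2 (17.3 and 0.36 CPM) and Dll1 (29.8 and 1.08 CPM) were higher too. The receptors differed less, with Notch1 at a log2 ratio of 1.68 and Notch2 at 1.76. The target gene Hes1 was at 708 CPM in the members and 685 CPM in the comparison cells. Nrarp, another target, was at 10.3 and 5.26 CPM, a log2 ratio of 0.97 that became 1.08 without sub-cluster 5.

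Growth factor receptors and ligands were split. Of the 13 FGF and MET family genes, 4 were higher and 3 lower. Fgfr2 was at 60.8 and 4.28 CPM (log2 ratio 3.83), Fgfr3 at 9.65 and 1.19 CPM, Fgfr1 at 45.5 and 11.9 CPM, and the ligand Fgf1 at 81.7 and 25.5 CPM. Of the 11 EGF receptor family genes, 3 were higher and 3 lower. Egfr (125 and 39.8 CPM), Epgn (17.3 and 1.42 CPM) and Ereg (60.0 and 23.9 CPM) were higher, whereas Erbb3 (12.4 and 30.7 CPM), Btc (27.8 and 90.1 CPM) and Egf (11.5 and 60.5 CPM) were lower. The members therefore held more RNA of the EGF receptor and less of the ligand Egf. Nrg1, the neuregulin ligand of ErbB3, was at 154 and 6.20 CPM, and Axl, a receptor tyrosine kinase, was at 127 and 3.65 CPM with 98.6 CPM in the Ptprc+ Epcam- cells.

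Of the 20 Wnt pathway genes, 11 were compared, and 4 of these were higher with none lower (median 0.39). The ligand Wnt10a was at 23.2 and 0.22 CPM (log2 ratio 6.70). Ccnd1, the cyclin D1 gene, was at 434 and 31.5 CPM (3.78), with a UMI in 67.1% of members and 11.9% of comparison cells. Axin2, a feedback gene of the canonical pathway, was at 6.78 and 1.93 CPM, below the 10.1 CPM of the Ptprc+ Epcam- cells. Of the 10 TGF-beta and BMP genes, 4 were higher and none lower (median 0.61), which were Tgfb1 (134 and 15.6 CPM), Tgfb2 (34.97 and 7.49 CPM), Bmp2 (37.8 and 11.1 CPM) and Id2 (264 and 87.8 CPM). Of the 12 AP-1 and immediate early genes, Fosl1 was higher (405 and 169 CPM) and Fos and Atf3 were lower (log2 ratios -1.27 and -1.44). Among all genes compared 14.6% were higher and 14.3% lower, so these counts do not set the AP-1 list apart.

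Of the 17 cytokines and chemokines compared, 6 were higher and 1 lower (median 0.66). The median was -0.04 on thinned counts and -0.50 with each cell weighted equally, so the list had no stable direction. Csf3, which encodes the granulocyte growth factor G-CSF, was at 102 CPM in the members and 2.79 CPM in the comparison cells, a log2 ratio of 5.19 (5.06 to 5.33). It had a UMI in 15.9% of members, 0.879% of comparison cells and 0.360% of Ptprc+ Epcam- cells at 5000 UMIs. On all UMIs the share of members was 26.9%, so it moved with depth. The alarmin Il33 was at 21.5 and 2.45 CPM, the chemokine Ccl20 at 27.9 and 4.66 CPM, and Cxcl16 at 232 and 112 CPM. The monocyte attractant Ccl2 was lower, at 3.85 and 31.9 CPM. Of the 11 protease and inhibitor genes, 3 were higher and 3 lower. Plaur, the urokinase receptor gene, was at 1116 and 362 CPM and Serpinb5, the maspin gene, at 320 and 112 CPM, while Mmp7, matrilysin, was at 1204 and 4491 CPM.

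Of the 11 contractile and cytoskeletal genes, 7 were higher and none lower (median 1.20). Tropomyosin Tpm2 was at 426 and 16.5 CPM (log2 ratio 4.69), Tpm1 at 1773 and 320 CPM, Flna at 224 and 37.1 CPM, Cald1 at 214 and 44.7 CPM and Cav1 at 69.2 and 5.18 CPM. The smooth muscle marker list gave 1 higher, 1 lower and 1 in between of 3 compared. At equal depth its genes Acta2 and Tagln had log2 ratios of -0.39 and -0.11, against 0.74 and 1.01 on all UMIs, so their direction turned with depth weighting. Vim, the intermediate filament gene of mesenchymal cells, was at 35.1 and 57.0 CPM. Of the 10 progenitor-associated surface genes, 3 were higher, among them Cd9 (1983 and 545 CPM), and 1 was lower, Ly6a (log2 ratio -1.04).

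Apoe and Dcn, which are usually read as genes of macrophages and fibroblasts, were among the abundant genes of the members. Apoe, the apolipoprotein E gene, was at 3714 and 81.4 CPM, a log2 ratio of 5.51 (5.49 to 5.54), with a UMI in 94.4% of members and 13.9% of comparison cells. It was at 13195 CPM in the Ptprc+ Epcam- cells, with a UMI in 48.6% of them. Of the macrophage complement genes, C1qa was at 2.03 CPM in the members, 6.95 CPM in the comparison cells and 1959 CPM in the Ptprc+ Epcam- cells. The 8 immune markers were all detected in the members and summed to 94.3 CPM, below the 166 CPM of the comparison cells and the 24960 CPM of the Ptprc+ Epcam- cells. Of the 3 immune markers compared, none was higher. The part of macrophage RNA in the Apoe level was not tested.

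Dcn, the proteoglycan decorin gene, was at 1027 and 158 CPM, a log2 ratio of 2.70 (2.68 to 2.72), and at 5807 CPM in the 1314 cells with neither Epcam nor Ptprc. It had a UMI in 85.7% of members, 10.5% of comparison cells and 7.55% of Ptprc+ Epcam- cells. The fibroblast collagens were low in both groups. Col1a1 was at 6.89 and 11.7 CPM, against 378 CPM in the Epcam- Ptprc- cells, and Col3a1 was at 7.12 and 7.39 CPM, against 327 CPM. All 6 fibroblast markers were detected in the members and summed to 1052 CPM, of which Dcn was nearly all, with 207 CPM in the comparison cells and 7555 CPM in the Epcam- Ptprc- cells. The median log2 ratio of the 5 fibroblast markers compared was -0.76, and 2.45 against comparison cells with high Krt8 and Krt18, so its direction turned with the choice of comparison cells. This median was -2.62 on thinned counts, -3.02 with each cell weighted equally and -2.49 at a keratin threshold of 50 per 10000. The part of RNA from fibroblasts in the Dcn level was not tested. The 5 endothelial markers summed to 12.0 CPM in the members and 24.4 CPM in the comparison cells, and none of the 3 compared was higher.

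The 15 genes with the lowest ratios at equal depth were Jchain, Svs2, Svs5, Pate4, Svs4, Ccl2, Hbb-bt, A630095E13Rik, Rnase1, Spink1, Prlr, hMETtg, Azgp1, Msmb and Hamp. Of the 13 luminal markers, 9 were lower and none higher (median -1.78). Sbp, the spermine-binding protein gene, was at 6382 and 58976 CPM (log2 ratio -3.21), Spink1 at 1629 and 18139 CPM (-3.48), Msmb at 777 and 5089 CPM (-2.71), Defb50 at 2118 and 12219 CPM (-2.53) and Pbsn, the probasin gene, at 410 and 1570 CPM (-1.94). These genes were also found in cells that should lack them. Sbp was at 2163 CPM in the Ptprc+ Epcam- cells, and it had a UMI in 99.3% of members and 99.6% of Ptprc+ Epcam- cells at 5000 UMIs, with medians of 7 and 10 UMIs. The median of the comparison cells was 5 UMIs and their ninth decile 525 UMIs, so the difference in summed Sbp came from a minority of comparison cells with very many UMIs. The part of free RNA in these levels was not tested.

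All 4 seminal vesicle markers compared were lower (median -5.14), with Svs2 at 87.7 CPM in the members, 5009 CPM in the comparison cells and 106 CPM in the Ptprc+ Epcam- cells. The comparison cells thus include cells with seminal vesicle RNA. The 3 urothelial markers compared were lower as well (median -1.42, but -2.39 on thinned counts and -2.33 with cells weighted equally). None of the 6 neuroendocrine markers reached 5 CPM, and they summed to 0.25 CPM in the members and 0.34 CPM in the comparison cells. Of the 12 androgen-regulated genes, 8 were lower and 2 higher (median -1.70, but -2.62 with cells weighted equally and -2.57 without sub-cluster 5). Besides secretory genes, the lower ones included Fkbp5 (log2 ratio -1.22), Mme (-2.23) and Zbtb16 (-2.13), and the higher ones were Steap4 (2.12) and Ndrg1 (2.29). Of the 9 MHC genes, 2 were lower and none higher (median -0.80, but -2.21 on thinned counts, -2.19 with cells weighted equally and -1.64 without Scrublet doublets), with B2m, the light chain of class I, at 1050 and 3844 CPM and the immunoproteasome gene Psmb8 at a log2 ratio of -1.04.

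The transgenes differed in their pattern. The hMETtg level was 84.7 CPM in the members (81.7 to 87.8) and 481 CPM in the comparison cells, a log2 ratio of -2.50 (-2.56 to -2.45). In the Ptprc+ Epcam- cells it was at 15.5 CPM. At 5000 UMIs, 218 of 1962 members (11.1%, 9.75 to 12.6) had a UMI of hMETtg, against 64.1% of comparison cells (62.7 to 65.4) and 7.55% of Ptprc+ Epcam- cells (4.74 to 11.3). The mouse Met gene was at 107 and 128 CPM (log2 ratio -0.26) and at 9.45 CPM in the Ptprc+ Epcam- cells.

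The hHGFtg level was 611 CPM in the members and 324 CPM in the comparison cells, a log2 ratio of 0.91 (0.89 to 0.94). In the Ptprc+ Epcam- cells it was at 24.0 CPM. The ratio was short of 2-fold over all members and past it without sub-cluster 5, at 1.13 (1.11 to 1.16). At 5000 UMIs 40.1% of members (37.9 to 42.3) and 45.0% of comparison cells (43.6 to 46.4) had a UMI, so the share of cells went the other way from the summed level. The median was 0 in both groups, the ninth decile was 11 UMIs in the members and 5 in the comparison cells, and the maximum was 105 and 140 UMIs. Mouse Hgf was at 84.7 and 46.0 CPM. Human and mouse HGF are close in sequence, and how the counting divided reads between them is not given in the sources used here, so the levels of Hgf and of hHGFtg are uncertain, as are those of Met and hMETtg. Spint2, an inhibitor of the protease that activates HGF, was at 440 and 1048 CPM.

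Cycling cells were rare. With a cell called cycling where UMIs of 3 or more of the 15 proliferation genes remained at 5000 UMIs, 6 of 1962 members were cycling (0.306%, 0.112 to 0.664) and 39 of 5118 comparison cells (0.762%, 0.542 to 1.04). Only 2 of the 15 genes reached 5 CPM, with Prc1 higher in the members (5.94 and 2.40 CPM) and Ube2c lower (2.70 and 5.79 CPM). Ccnd1, which was high in the members, is not among these genes.

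The members were not uniform along the keratin sum that chose them. In the 445 members at 20 to 50 per 10000, hMETtg was at 219 CPM, Sbp at 15489 CPM, Mmp7 at 3268 CPM and Krt8 at 3850 CPM. In the 680 members at 50 to 100, hMETtg was at 49.8 CPM and Sbp at 3503 CPM. In the 797 members at 100 to 200, hMETtg was at 11.9 CPM and Sbp at 1871 CPM, and in the 179 members at 200 or more, 13.5 and 1608 CPM, below the 15.5 and 2163 CPM of the Ptprc+ Epcam- cells. Krt8 did not go down in the same way, at 2189, 2027 and 2232 CPM in the 3 upper bands. Dcn was at 575, 1179, 1256 and 1205 CPM from the lowest band to the highest, and Apoe at 2100, 4298, 4494 and 4352 CPM. Scrublet doublets made up 59 of the 445 members in the lowest band (13.3%) and none of the 179 in the highest. The part of doublets in the lowest band was not tested.

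**Figure D3:**
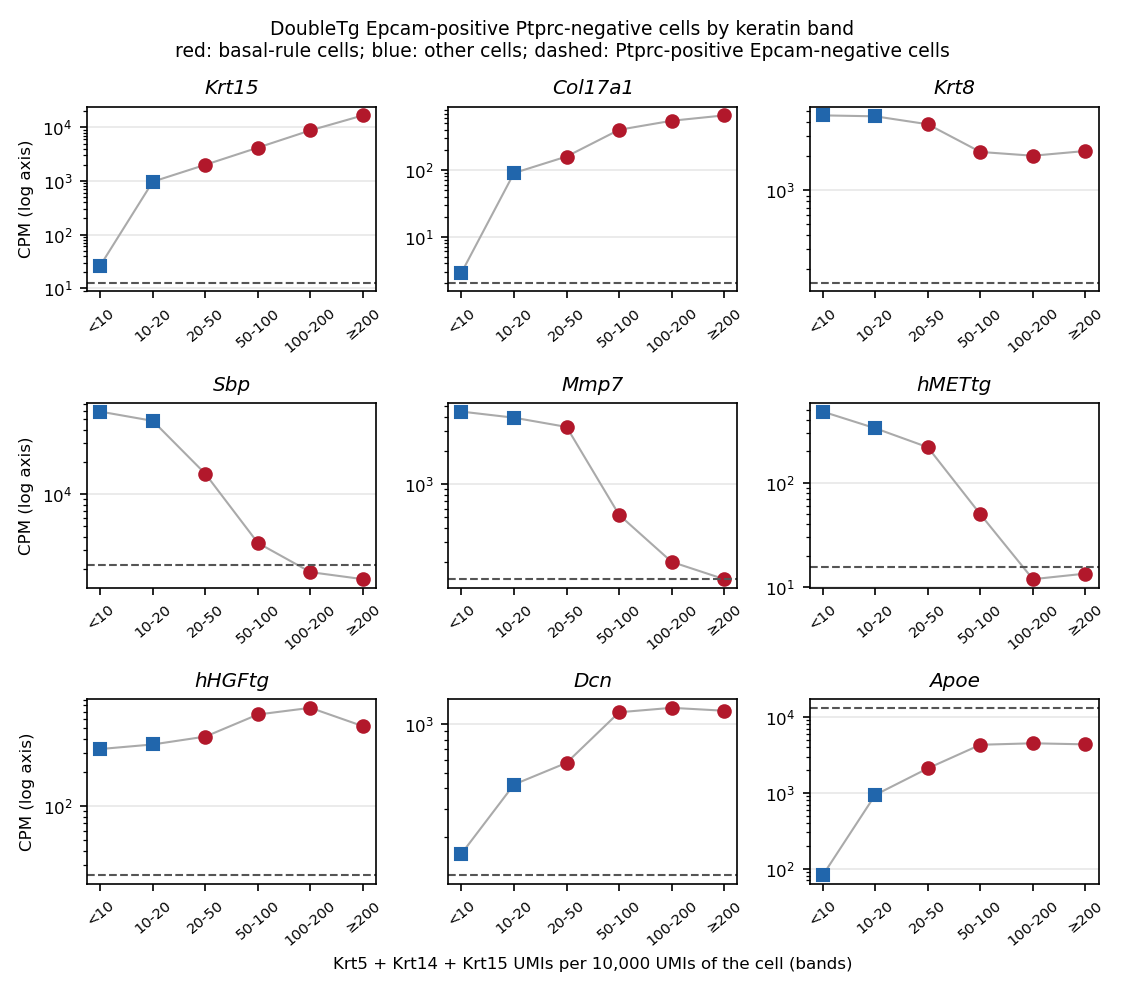
Level of each gene in CPM on a log axis (red for members, blue for other Epcam+ Ptprc- cells, dashed line for Ptprc+ Epcam- cells), in bands of the summed Krt5, Krt14 and Krt15 level per 10000 UMIs, for DoubleTg cells. From the lowest band of members to the highest, hMETtg went from 219 to 13.5 CPM and Sbp from 15489 to 1608 CPM, while Krt8 was between 2027 and 3850 CPM throughout.

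Clustering of the members alone gave 7 sub-clusters, which are called by number and leading genes. The clustering used all genes, so leading genes are a description. Sub-cluster 5, with 262 cells, was led by Tff3, Fcgbp, Cxcl17, Spink5 and Psca, which are genes of secretory and upper epithelial cells. It had a median of 32180.5 UMIs and held 86 of the 102 member doublets (32.8% of its cells) and 25.7% of all member UMIs. It also held 80.9% of the members' hMETtg UMIs, 79.2% of their Sbp UMIs and 67.0% of their B2m UMIs, and its luminal markers summed to 47330 CPM, against 9772 CPM in the other members and 111114 CPM in the comparison cells. The part of doublets in these levels was not tested. List counts that it moves are given again without it.

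In the 1839 members outside sub-cluster 5, hMETtg was at 21.8 CPM, a log2 ratio to the comparison cells of -4.46 (-4.58 to -4.34), and 120 of 1716 cells had a UMI at 5000 UMIs (6.99%, 5.83 to 8.30). Sub-cluster 7 was at 27.1% by the same measure and the remaining 5 were between 4.02% and 7.95%, next to the 7.55% of the Ptprc+ Epcam- cells. Sbp was at 1787 CPM and Pbsn at 103 CPM, a log2 ratio of -3.93. B2m was at 467 CPM (log2 ratio -3.04) and Mmp7 at 394 CPM (-3.51). Spink1 had a log2 ratio of -5.06, Egf -4.39, Mme -3.83 and the urothelial gene Upk1a -3.91, with 75.2%, 81.4%, 75.6% and 86.8% of their member UMIs in sub-cluster 5. Krt8 was at 2027 CPM, Krt18 at 1802 CPM and Krt19 at 1791 CPM, each past 2-fold lower. Dcn was at 1241 CPM, Apoe at 4654 CPM, Csf3 at 120 CPM and Met at 102 CPM, with the same calls as over all members, and hHGFtg was at 712 CPM. Ccl20 had 63.8% of its member UMIs in sub-cluster 5, and its log2 ratio went from 2.58 to 1.54 without it. Over all genes compared, 17.4% were then higher and 20.8% lower. The list counts are read beside these shares. The luminal markers then had 13 of 13 lower (median -3.35), the 3 urothelial markers a median of -3.91, the 3 endothelial markers 3 lower and the MHC list 4 of 9 lower, H2-K1 at -1.37 among them. The androgen-regulated list had 9 of 12 lower, the progenitor-associated list 4 of 10 and the AP-1 list 5 of 12. The keratin list had 5 of 14 lower, the lineage factors 4 of 16, the cytokines 2 of 17, the Wnt list 1 of 11 and the 2 proliferation genes none, of which the cytokine and Wnt shares were below that of all genes. Hemidesmosome and laminin-332 genes had 10 of 12 higher, as over all members, the Notch list 6 of 7, the FGF and MET list 6 of 13 and the basement membrane list 7 higher and 1 lower of 12.

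**Figure D4:**
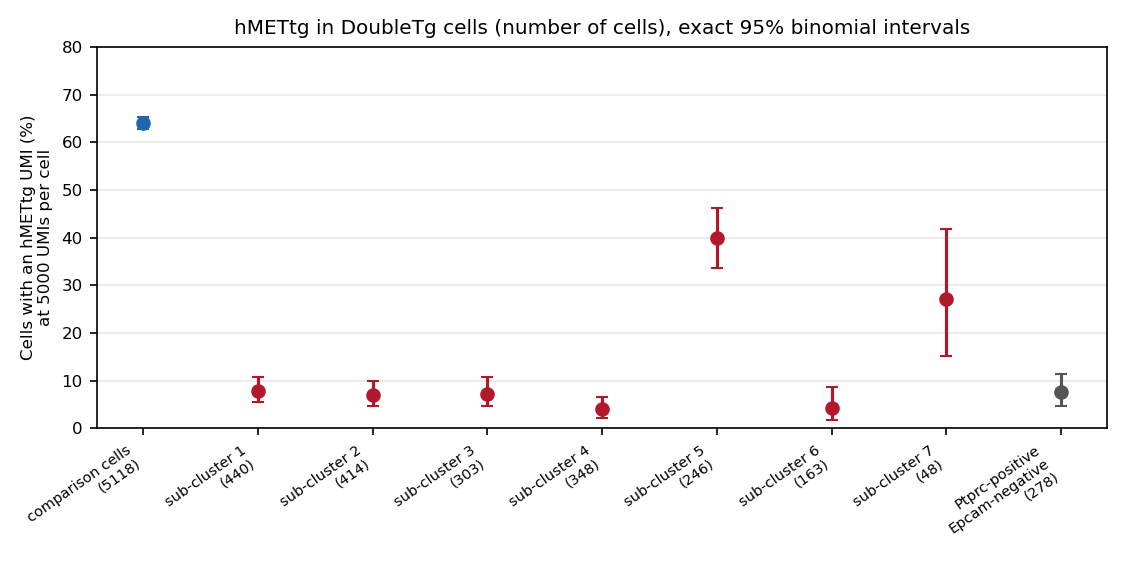
Share of cells with a UMI of hMETtg after thinning to 5000 UMIs, for the sub-clusters of the members and the other cell groups of DoubleTg, with 95% exact binomial intervals. Sub-clusters 5 and 7 stood at 39.8% and 27.1%, and the other sub-clusters between 4.02% and 7.95%, next to 7.55% of Ptprc+ Epcam- cells and 64.1% of comparison cells.

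Sub-cluster 1, with 450 cells, was led by Rgs1 and by H2-Eb1, H2-Aa, H2-Ab1 and Cd74 of the MHC class II pathway, with haemoglobin genes. H2-Aa was at 124 CPM there and 11.6 CPM in the other members, and Cd74 at 244 and 45.7 CPM. All 8 immune markers were detected in it and summed to 280 CPM, the highest of the sub-clusters, and the part of RNA from other cells was not tested. Sub-cluster 2, with 416 cells, was led by Calcb (357 and 53.2 CPM), Adam8, Il33 (53.1 and 11.9 CPM), Anxa8, Gsta1, Adh7, Wnt10a (50.3 and 14.96 CPM) and Fn1 (89.4 and 26.7 CPM). Dcn, by contrast, was at 915 CPM in it against 1027 CPM over all members.

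Sub-cluster 3, with 401 cells and a median of 7754 UMIs, was the shallow one and was led by Pgm5, Rcan1, AY036118, Id1, Adm, Id3, Hbegf and Fosb. Id1 was at 454 CPM in it and 163 CPM in the other members, and the part of depth was not tested. Sub-cluster 4, with 358 cells, was led by Ier5l, Zfp36l2, Medag, Arl4c and Krt13 (249 and 99.2 CPM). Sub-cluster 6, with 165 cells, was led by Fabp7, Gm13889 and Rgs5 and had Vim at 170 and 23.9 CPM, Acta2 at 147 and 25.9 CPM and Myl9 at 76.5 and 9.42 CPM. All 6 smooth muscle markers were detected in it and summed to 455 CPM, against 2259 CPM in the Epcam- Ptprc- cells, and their part in it was not tested. Sub-cluster 7, with 49 cells, was led by the interferon-induced genes Ifit3 (176 and 2.21 CPM) and Rsad2 (496 and 8.03 CPM) together with Col3a1, and it had hMETtg at 179 CPM. Its luminal markers summed to 40286 CPM. It also had the highest haemoglobin levels of the sub-clusters, with Hba-a1 at 1352 CPM and Hbb-bs at 2235 CPM, against 184 and 464 CPM in sub-cluster 1.

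The same rule applied to the TripleTg library, whose mice carry stabilised β-catenin, found 818 of 9492 cells, against 6632 comparison cells. In it 9012 genes were compared, of which 912 were higher (10.1%) and 831 lower (9.22%). Over the 8379 genes compared in both libraries, 451 were higher in both, which is 37.9% of the DoubleTg genes and 61.8% of the TripleTg genes, where 8.71% and 14.2% of all were called in the other library. For lower genes 385 were shared, 37.8% and 61.8%, against 7.44% and 12.2%. The libraries share the rule and the protocol, so this overlap is a description.

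The attachment genes kept their direction in TripleTg, with 9 of 12 hemidesmosome and laminin-332 genes higher, none lower and a median log2 ratio of 2.21. Col17a1 had a log2 ratio of 6.47, Trp63 6.21, Aqp3 5.81, Lamb3 4.70 and Jag1 3.09. A Trp63 UMI at 5000 UMIs was seen in 23.7% of TripleTg rule cells and 5.50% of DoubleTg members. The shares of their comparison cells were 0.51% and 0.12%. The simple keratins were lower to a greater extent, with Krt8 at a log2 ratio of -2.28 against -0.81 in DoubleTg. The DoubleTg ratio was -1.19 without sub-cluster 5, which held 86 of the 102 member doublets, whereas Scrublet marked 0 of the 9492 TripleTg cells. The part of doublets in this difference was not tested. Of TripleTg rule cells, 29.7% reached 20 per 10000 of Krt8 and Krt18, against 81.9% of DoubleTg members. Krt6a was at a log2 ratio of 2.44 in TripleTg and -0.01 in DoubleTg. Genotype and library cannot be told apart in these values.

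Other ratios were smaller in TripleTg. Dcn was at 212 CPM in TripleTg rule cells and 209 CPM in comparison cells, and Csf3 at 8.83 and 7.37 CPM. Csf3 had a UMI in 4.44% of TripleTg rule cells (3.10 to 6.16) and 1.94% of comparison cells (1.60 to 2.33) at 5000 UMIs, and 1 comparison cell held 86 of its UMIs. Apoe was still past 2-fold higher in the summed level, with a log2 ratio of 1.47 against 5.51 in DoubleTg, and Pdgfb had 0.28 against 5.65. The share of cells with an Apoe UMI at 5000 UMIs was 59.0% of TripleTg rule cells and 59.6% of TripleTg comparison cells. Their median was 1 Apoe UMI in both groups, and the ninth decile was 23 UMIs in the rule cells and 4 in the comparison cells. Among genes with at least 50 CPM (all UMIs) in a group of both libraries, the ratios most in favour of DoubleTg were those of Rbms3 (4.33 and 0.50 in TripleTg), Rhoc, Apoe, Ctgf and Apoc1, and those most in favour of TripleTg included Spink5, Fxyd4 (-0.70 and 3.14), Gsta4 (0.67 and 4.24) and Cbr2. For hMETtg the TripleTg log2 ratio was -0.58, at 27.2 and 40.6 CPM, and for hHGFtg it was 2.72, at 307 and 46.4 CPM. Cycling cells were 19 of 765 TripleTg rule cells (2.48%) and 265 of 5674 comparison cells (4.67%). None of these differences between the libraries was tested, since each genotype is 1 library.

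**Figure D5:**
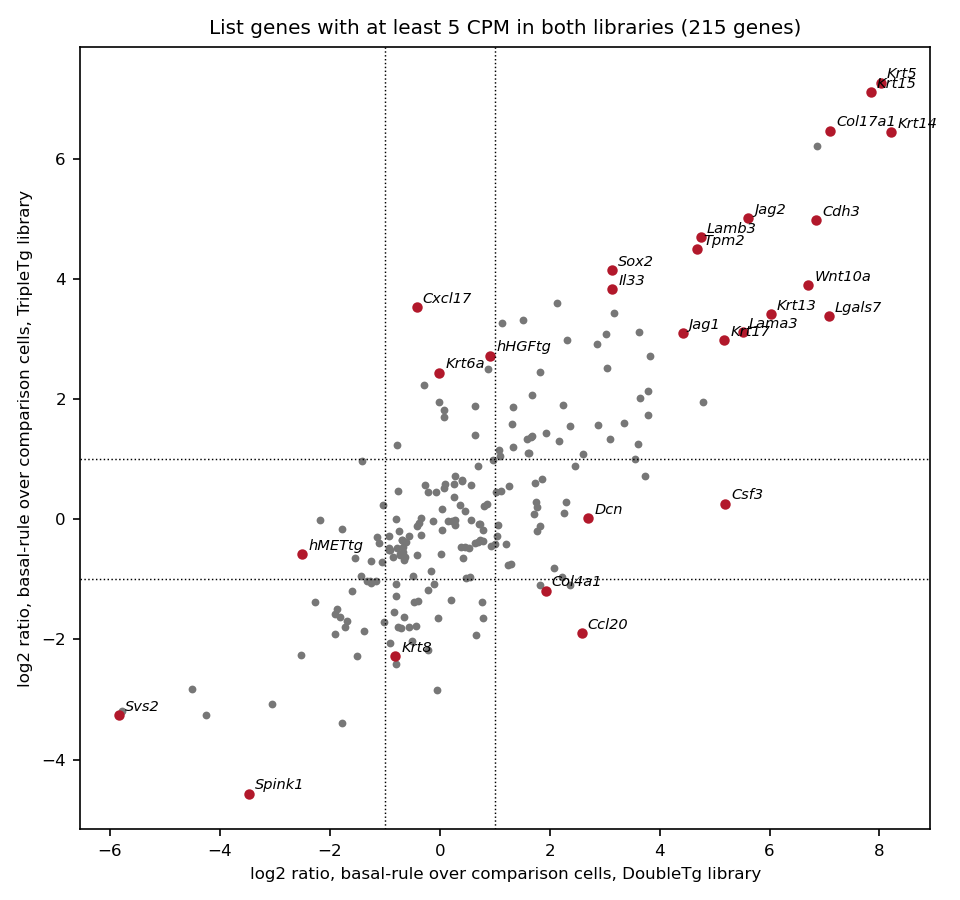
Log2 ratio of rule cells over comparison cells for 215 list genes, DoubleTg on the horizontal and TripleTg on the vertical axis. Of these genes 81 were at least 2-fold higher in DoubleTg, 63 in TripleTg and 52 in both, dotted lines mark 2-fold, and Dcn and Csf3 lie at the right near 0 on the TripleTg axis.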

How the data were processed

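Per the labels and file headers, the authors prepared 1 10x Genomics 3′ library (version 3 chemistry) per genotype and deposited raw UMI counts per gene and cell, made with Cell Ranger on mm10 with the human transgene sequences added. The submitters' processing notes name Cell Ranger 6.0.2 and the header of the DoubleTg file 6.1.1. The TripleTg file already met the limits on genes and mitochondrial UMIs.

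Members and gene lists were chosen with earlier results of these data known. UMIs were summed over the cells of a group and divided by its total (CPM). Intervals were exact Poisson for sums, Clopper-Pearson for shares and conditional binomial for ratios, and they cover counting error only. A sum under 3 UMIs was set to 3 where genes were ranked. Thinning to 5000 UMIs used a fixed seed. Doublets were marked by Scrublet (273 of 10598 DoubleTg cells, 2.58%) and kept, except in an alternative. Sub-clusters used scanpy 1.11.5, with 2000 variable genes, 20 principal components, 15 neighbours and Leiden resolution 0.5. Other tools were Python 3.11.15, numpy 2.4.6, scipy 1.17.1, matplotlib 3.10.9 and edgeR 4.0.16 (TMM factors only). The scripts were tested on simulated data. Gene positions are those of GENCODE mouse release 21, and Cavin1 had no feature.

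Named genes were those of the lists, the 15 highest and 15 lowest ratios on thinned counts (restricted to genes reaching 50 CPM, on those thinned counts, in members or comparison cells), the 8 leading genes of each sub-cluster, and the 5 genes at either end of the difference between libraries. Some genes that the rule names are not reported here. Nrg1 and Axl were chosen after their values were seen. Alternatives were thinned counts, cells weighted equally, TMM scaling, other level filters, a keratin threshold of 50 per 10000, comparison cells with Krt8 and Krt18 at 20 per 10000 or more, doublets left out and, chosen after seeing the data, sub-cluster 5 left out.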

Additional observations from a re-analysis of the deposited data

Results flagged for a closer look

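For 9 named genes the difference between the basal rule cells and the comparison cells had opposite directions in the libraries, past 2-fold in each. Among all 8379 genes compared in both libraries, 20 were higher in DoubleTg and lower in TripleTg, and 33 were the reverse. There is 1 library per genotype, and the difference between them was not tested. Ccl20 had a log2 ratio of 2.58 in DoubleTg and -1.89 in TripleTg. The basement membrane collagens Col4a1 (1.92 and -1.19) and Col4a2 (1.82 and -1.10), which are transcribed from a shared promoter region, went together. Ctgf had 2.71 and -1.61, Rhoc 2.22 and -1.80, Apoc1 2.27 and -2.10, and Gm1673 5.20 and -1.26. In the other direction, Spink5 had -2.14 in DoubleTg and 2.92 in TripleTg, and Jchain -4.66 and 1.85, with 26 UMIs in the DoubleTg members. Of the DoubleTg members' Ccl20 UMIs, 63.8% were in sub-cluster 5, as were 89.6% of their Spink5 UMIs.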

How the results depend on the processing

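The count of genes higher in the members, 1349, lay between 1111 and 1654 under most alternatives. It was 4464 with every gene of at least 3 UMIs kept and 502 with genes of at least 50 CPM. The count of lower genes, 1319, was 2026 with each cell weighted equally, 2817 with every gene of at least 3 UMIs kept and 355 at 50 CPM, and lay between 1300 and 1947 otherwise. These filters change how many genes are compared. The hMETtg log2 ratio, -2.50, was -3.60 on thinned counts, -3.36 with cells weighted equally, -2.63 with TMM scaling, -4.11 with a keratin threshold of 50 per 10000, -3.16 without Scrublet doublets and -4.46 without sub-cluster 5, and it stayed negative throughout. TMM scaling moved every log2 ratio by -0.12. The cycling share of the members was between 0.306% and 0.561%. Of the 26 list medians, those of the fibroblast, smooth muscle, EGF, FGF and MET, cytokine and protease lists changed sign under some alternative, for example smooth muscle from 0.74 to -1.08 on thinned counts and fibroblast from -0.76 to 2.45 with comparison cells of high Krt8 and Krt18. Other medians kept their sign and moved by over 1.5 times, among them TGF-beta and BMP (0.61, and 0.30 with cells weighted equally), contractile (1.20, and 2.28 against comparison cells of high Krt8 and Krt18) and endothelial markers (-0.90, and -2.77 on thinned counts). The cause was not tested. Depth limits genes that rest on few member UMIs, such as Trp63 (461), Axin2 (241), C1qa (72) and Jchain (26).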
